A study of Homo sapiens with 18 samples.

Results

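The interferon-stimulated genes described here are a list of 39 named antiviral genes, matched to the arrays by symbol. On the arrays 38 of the 39 had a probe set that the probe annotation pairs with 1 gene symbol, among 18417 genes so measured, and STAT2 was not analysed here for want of one. The cells were NCI-H1299, an established non-small cell lung carcinoma line without p53 of its own, transiently transfected with a plasmid that also makes green fluorescent protein (GFP). GFP-positive cells were sorted, and total RNA taken 40 hours after transfection was hybridized to Affymetrix Gene arrays. Set 1 has 9 arrays. Its groups are cells given the empty GFP plasmid (vector), cells given WTp53, and cells given ΔNp53:WTp53, a construct named for both ΔNp53, the N-terminally shortened form, and WTp53. Each group was made in experiments 0, 4 and 5, which the series describes as independent transfections. Set 2 has 9 more arrays, labelled as control experiments d, e and f, with vector, WTp53 and tethered WTp53. Whether d, e and f were separate transfections is not stated, so p-values of set 2 measure the spread between arrays that may be technical. The labels of the tethered arrays disagree, since their titles say tethered and another field names ΔNp53:WTp53, and the titles were followed. All groups share the line, the transfection and the GFP plasmid. Forced expression for 40 hours in 1 tumour line is the model, and no untransfected cells were analysed here.

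Interferon-stimulated genes are the output of a short signalling chain. Viral RNA or misplaced DNA is sensed in the cytosol or endosome, the sensors switch on interferon genes, and secreted interferon acts through receptors, JAK kinases and the complex ISGF3, which binds the interferon-stimulated response element (ISRE) in promoters. Many of the products degrade viral RNA, block translation or tag proteins with ISG15, and several are themselves sensors or signal transducers.

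The promoters show what the members share besides their function. Windows from 250 bases before to 50 bases after the start site were taken from RefSeq (GRCh38.p14), and 32 of the 38 measured members had one. The ISRE core, GAAA followed by any pair of bases and GAAA, searched on both strands, was present in 22 of these 32 windows, against 3.65% of 27305 promoter windows of the same length. Of the 22, 9 held 1 match, 9 held 2 and 4 held 3, overlapping matches included. The GAS element TTCNNNGAA, a site of STAT dimers, was in 8 of 32 windows against 7.88% of all. In BST2, IFI27 and EPSTI1 a GAS match shares bases with an ISRE core, so the counts of these motifs are not independent. The p53 half-site, searched by its consensus on both strands, was in 2 of 32, those of RIGI and ISG15, against 6.54% of all. A match is a run of letters and not a measured binding site. The 250 bases before the start site are given for 6 members on which the results turn: ISG15, IFIT1 and IFIT3 for their values in both sets, IFI44L for its wide range, CXCL10 for the tethered arrays, and BST2 because it holds matches yet did not pass the test against vector. Capitals mark the ISRE core on either strand, read 5′ to 3′ along the gene.
ISG15, chr1:1013247-1013496, plus strand: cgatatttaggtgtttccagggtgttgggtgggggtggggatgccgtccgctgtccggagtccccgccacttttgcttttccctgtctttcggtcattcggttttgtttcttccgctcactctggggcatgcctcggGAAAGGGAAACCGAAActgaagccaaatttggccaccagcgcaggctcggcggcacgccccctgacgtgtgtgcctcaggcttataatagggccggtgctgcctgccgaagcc
IFIT1, chr10:89392373-89392622, plus strand: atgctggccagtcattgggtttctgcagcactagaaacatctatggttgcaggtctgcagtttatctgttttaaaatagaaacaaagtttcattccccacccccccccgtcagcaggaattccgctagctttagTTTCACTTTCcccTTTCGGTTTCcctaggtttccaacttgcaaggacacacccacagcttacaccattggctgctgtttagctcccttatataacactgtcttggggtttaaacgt
IFIT3, chr10:89327747-89327996, plus strand: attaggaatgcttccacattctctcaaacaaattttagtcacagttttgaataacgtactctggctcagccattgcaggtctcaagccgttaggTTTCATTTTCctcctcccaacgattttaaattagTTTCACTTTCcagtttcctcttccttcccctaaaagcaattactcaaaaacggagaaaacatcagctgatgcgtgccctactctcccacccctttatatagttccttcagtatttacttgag
IFI44L, chr1:78620198-78620447, plus strand: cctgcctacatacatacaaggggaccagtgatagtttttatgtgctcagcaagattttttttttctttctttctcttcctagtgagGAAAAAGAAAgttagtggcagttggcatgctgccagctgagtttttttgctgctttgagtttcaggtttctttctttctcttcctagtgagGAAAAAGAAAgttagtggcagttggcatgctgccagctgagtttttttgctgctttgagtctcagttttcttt
CXCL10, chr4:76023498-76023747, minus strand: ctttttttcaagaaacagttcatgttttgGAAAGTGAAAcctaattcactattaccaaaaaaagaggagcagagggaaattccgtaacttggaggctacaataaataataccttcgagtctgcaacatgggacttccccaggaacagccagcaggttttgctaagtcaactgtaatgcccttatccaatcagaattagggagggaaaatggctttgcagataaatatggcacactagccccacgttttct
BST2, chr19:17405631-17405880, minus strand: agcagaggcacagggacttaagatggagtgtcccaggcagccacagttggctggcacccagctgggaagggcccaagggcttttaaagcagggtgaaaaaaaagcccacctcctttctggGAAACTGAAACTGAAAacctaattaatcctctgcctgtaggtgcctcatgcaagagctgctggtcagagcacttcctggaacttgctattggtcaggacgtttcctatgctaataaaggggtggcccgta
In ISG15 and in BST2 the pair of matches overlaps to form 1 run, from 113 to 98 bases and from 130 to 115 bases before the start site. In IFIT1 and IFIT3 the matches lie on the other strand and are apart, between 116 and 94 bases before the start in IFIT1 and between 156 and 113 in IFIT3. IFI44L has matches from 164 and from 73 bases before the start. CXCL10 has a single match, from 221 to 212 bases before the start.

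**Figure D1:**
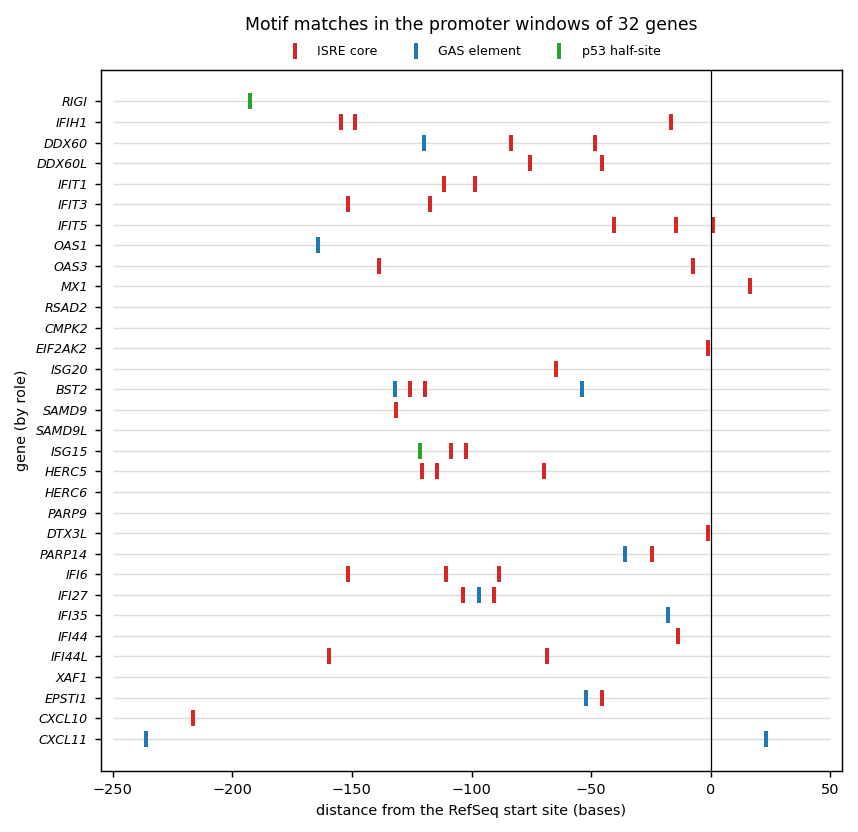
Positions of motif matches in the RefSeq promoter windows of the 32 members that have one; the x axis is the distance from the start site in bases, each row is a gene and each tick a match on either strand. Red ticks (ISRE core) appear in 22 rows, blue ticks (GAS element) in 8 and green ticks (p53 half-site) in 2.

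Array medians over all genes lay between 5.73 and 5.81 (log2 intensity) in set 1 and between 7.66 and 7.75 in set 2, so the sets were on different scales and no level was compared between them. The p53 targets CDKN1A, a cell cycle inhibitor, and MDM2, the ubiquitin ligase of p53, rose in all 4 comparisons with vector. CDKN1A rose by 4.62 ± 0.26 with WTp53 and 3.69 ± 0.26 with ΔNp53:WTp53 in set 1, and by 3.13 ± 0.06 with WTp53 and 3.22 ± 0.06 with tethered WTp53 in set 2 (log2 ± SE, n = 3 arrays a group; limma with Benjamini-Hochberg adjusted p under 0.05, the rule for "rose" and "fell" throughout). Of 10 epithelial markers 7 or 8 were below the median gene in each group, EPCAM among them, while KRT18 was high. Of 3 mesenchymal genes the line carries, 1 was below the median gene with vector in both sets and 0 in the other groups, and VIM was high. Of 10 leukocyte markers 9 were measured, and 7 of them were below the median gene in every group except WTp53 of set 2, where 6 were. Their summed linear intensity ranged from 245.6 to 301.2 in set 1 and from 1255 to 1498 in set 2. PTPRC (CD45), which defines leukocytes, was at 2.86, 2.81 and 2.61 on the vector arrays of set 1. With bulk RNA, fewer responding cells and less RNA per cell cannot be told apart.

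The arrays of experiment 0 and 1 tethered array stood apart for these genes. On the vector array of experiment 0 the median member was 2.31 (log2) above the mean of the other vector arrays of set 1, and 33 of 38 members were over 1 above it, as were 0.581% of all genes. The WTp53 array of experiment 0 was 1.78 above its own group by the same median, with 32 members over 1 against 0.364% of all genes. The ΔNp53:WTp53 array of experiment 0 was 2.15 above, with 30 members against 1.36%. All 3 groups of set 1, vector included, thus held 1 high array from the same experiment. In set 2 the tethered WTp53 array of experiment f had a median member 0.44 above d and e, and 11 members were over 1, against 0.0869% of all genes. Comparisons of members within a set that rest on these arrays are given with and without them. The difference of WTp53 effects between the sets is given with all arrays, and with arrays left out only as a range of counts. Comparisons of the pathway lists are given with all arrays only, so they were not checked against experiment 0. What sets these arrays apart was not tested.

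**Figure D2:**
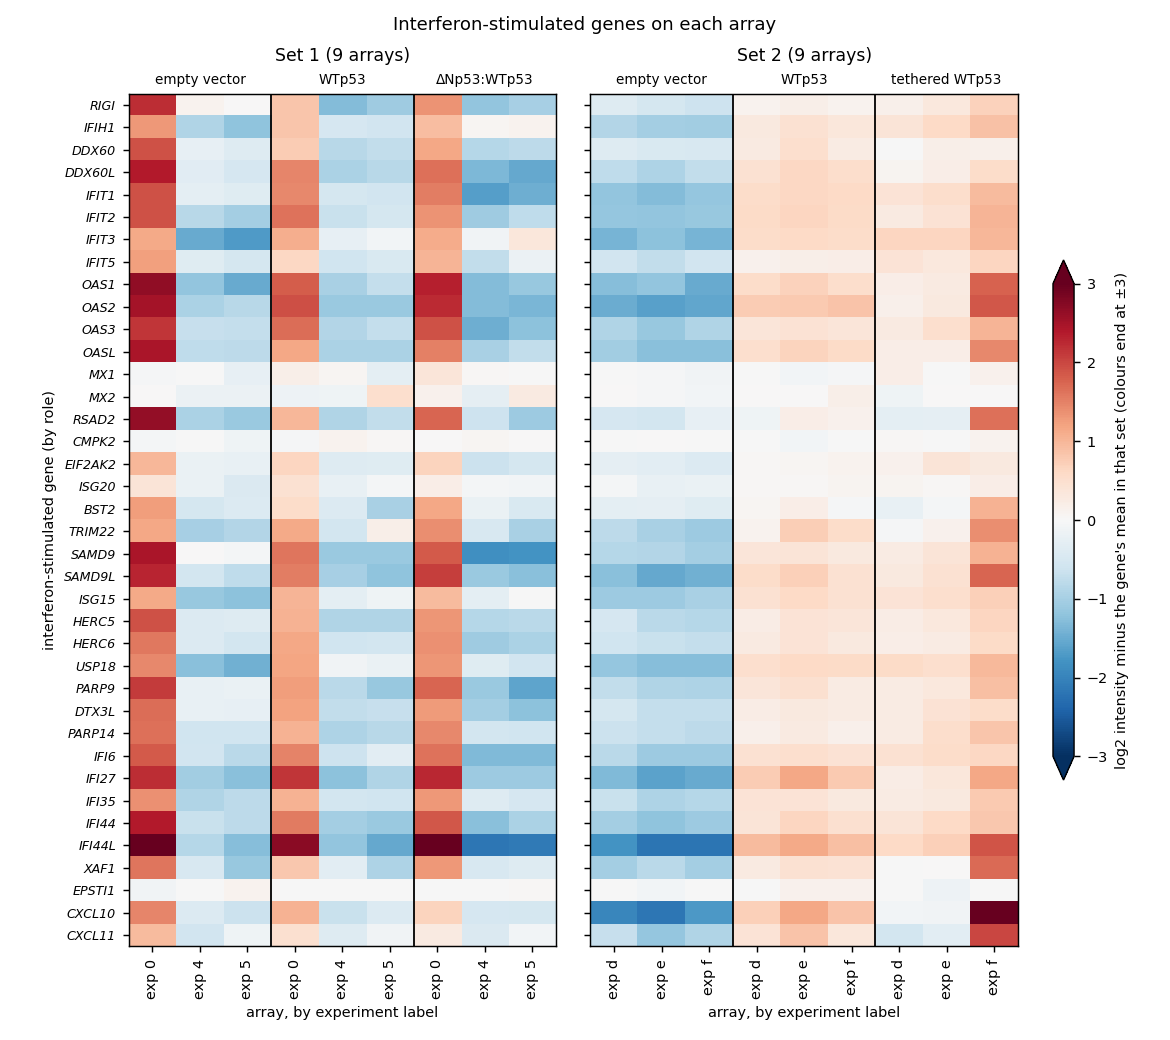
Heat map of the 38 measured members (rows, by role) on the 18 arrays (columns, by group and experiment label); colour is the log2 intensity minus the gene's mean within its set, with colours ending at ±3. The columns of experiment 0 are red for most genes in all 3 groups of set 1 but pale for MX1, MX2, CMPK2 and EPSTI1, and in set 2 the vector columns are blue for most genes and the tethered column of experiment f is darkest for CXCL10.

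The shift in experiment 0 covered most roles but not all members. IFI44L, a gene induced by type I interferon, was at 9.06, 4.88 and 4.47 with vector in experiments 0, 4 and 5. The same gene stood at 8.45, 4.55 and 4.21 with WTp53 and at 8.83, 3.58 and 3.62 with ΔNp53:WTp53. In each group experiment 0 was far above experiments 4 and 5, which lay close together. OAS1, an oligoadenylate synthetase whose product activates RNase L, was at 8.60, 4.75 and 4.42 with vector, in the same order. RSAD2 (viperin), which blocks the release of several viruses, was at 7.87, 4.29 and 4.13. By role, the median excess on the vector array of experiment 0 was 3.31 for the 4 genes of the oligoadenylate synthetase family. It was 2.53 for the IFI-named genes, 2.49 for the IFIT proteins, 2.31 for ISG15 and its enzymes and 2.29 for the RNA sensors. It was 2.24 for PARP9, DTX3L and PARP14, 1.65 for the chemokines and 1.46 for the other effectors. MX1, MX2, CMPK2 and EPSTI1 did not share it, with an excess of 0.10, 0.20, 0.01 and -0.16. These 4 were below the median gene on all 18 arrays, as were BST2 and TRIM22. The median SD of a member within a group was 1.34 for vector, 1.03 for WTp53 and 1.25 for ΔNp53:WTp53 in set 1, against 0.104, 0.109 and 0.151 over all genes. In set 2 the member SD was 0.0918 for vector, 0.0779 for WTp53 and 0.274 for tethered WTp53.

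In set 2 most of the group rose with WTp53. Against vector 32 of 38 members rose and 0 fell, against 17.9% of all genes that rose and 18.9% that fell (limma, adjusted p under 0.05). The median member differed by 1.34 (log2), the median gene by -0.02. For 34 members all 3 WTp53 arrays were above all 3 vector arrays, which held for 22.3% of all genes, and for 0 all 3 were below, against 24.8%. The vector and WTp53 groups of set 2 hold none of the arrays that stand apart. The tethered arrays enter the estimate of spread. Without the tethered array of experiment f 34 members rose and 0 fell, against 18.4% and 19.4% of all genes.

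All 4 sensors and sensor helicases rose. IFIH1 (MDA5, a sensor of long double-stranded RNA) was at 9.23, 9.10 and 9.08 with vector and at 10.41, 10.57 and 10.45 with WTp53, and the groups did not overlap. Its difference was 1.34 ± 0.10 (limma adjusted p = 2.4e-06). RIGI, the sensor of RNA with a 5′ triphosphate, rose less, from 10.17, 10.04 and 9.95 to 10.67, 10.73 and 10.67, by 0.64 ± 0.11. The helicases DDX60 and DDX60L rose by 0.78 ± 0.07 and 1.34 ± 0.11.

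The IFIT proteins bind viral RNA and block its translation. IFIT3 was at 7.76, 7.92 and 7.77 with vector and at 9.71, 9.76 and 9.71 with WTp53, and IFIT1 at 9.66, 9.53 and 9.67 and 11.39, 11.47 and 11.45. For both genes the arrays of a group lay close together and the groups were far apart. IFIT3 rose by 1.91 ± 0.09, IFIT1 by 1.82 ± 0.11, IFIT2 by 1.76 ± 0.15 and IFIT5 by 0.80 ± 0.08.

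All 4 genes of the oligoadenylate synthetase family rose, OAS2 by 2.36 ± 0.34, OAS1 by 1.91 ± 0.32, the synthetase-like OASL by 1.77 ± 0.27 and OAS3 by 1.36 ± 0.15. Among the other effectors, SAMD9L rose by 1.98 ± 0.29, TRIM22 by 1.41 ± 0.31, SAMD9 by 1.27 ± 0.16, EIF2AK2 (PKR, a kinase that stops translation on double-stranded RNA) by 0.40 ± 0.06 and the exonuclease ISG20 by 0.22 ± 0.06. This role also held 5 of the 6 members that did not pass. RSAD2 differed by 0.50 ± 0.41, BST2 (tetherin) by 0.38 ± 0.25, MX2 by 0.10 ± 0.06, MX1 by 0.01 ± 0.06 and CMPK2 by -0.03 ± 0.05. MX1, a dynamin-like GTPase often used as a marker of interferon exposure, was at 5.79, 5.76 and 5.69 with vector and at 5.79, 5.72 and 5.76 with WTp53. Its groups overlapped, at a level well under the array medians.

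ISG15, the ubiquitin-like protein that is joined to other proteins, was at 8.38, 8.37 and 8.50 with vector and at 9.93, 10.05 and 9.92 with WTp53, a rise of 1.55 ± 0.08. USP18, which removes ISG15 and dampens receptor signalling, rose by 1.79 ± 0.10, the ISG15 ligase HERC5 by 1.04 ± 0.11 and its relative HERC6 by 0.98 ± 0.09. PARP9 rose by 1.22 ± 0.14, its partner ligase DTX3L by 0.90 ± 0.08 and PARP14 by 0.91 ± 0.11. Every member of both roles thus passed.

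IFI44L had the largest difference of the group, from 7.10, 6.70 and 6.71 with vector to 9.85, 10.03 and 9.81 with WTp53, a rise of 3.06 ± 0.27. IFI27 rose by 2.39 ± 0.21, IFI44 by 1.61 ± 0.10, IFI6 by 1.45 ± 0.08, the pro-apoptotic XAF1 by 1.34 ± 0.35 and IFI35 by 1.18 ± 0.13. EPSTI1, with a difference of 0.11 ± 0.06, did not pass. The chemokine CXCL10, which draws T cells through CXCR3, went from 5.04, 4.81 and 5.27 to 7.70, 8.15 and 7.85, a rise of 2.86 ± 0.70. CXCL11, a ligand of the same receptor, passed narrowly with a rise of 1.45 ± 0.52 and a limma adjusted p of 0.0499, and lost the call when any single vector or WTp53 array was left out.

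When all 18 arrays shared 1 estimate of the spread, so that experiment 0 entered it, the differences stayed as they were but 4 members passed, IFIT3, ISG15, USP18 and CXCL10, against 10.5% of all genes higher and 9.03% lower.

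**Figure D3:**
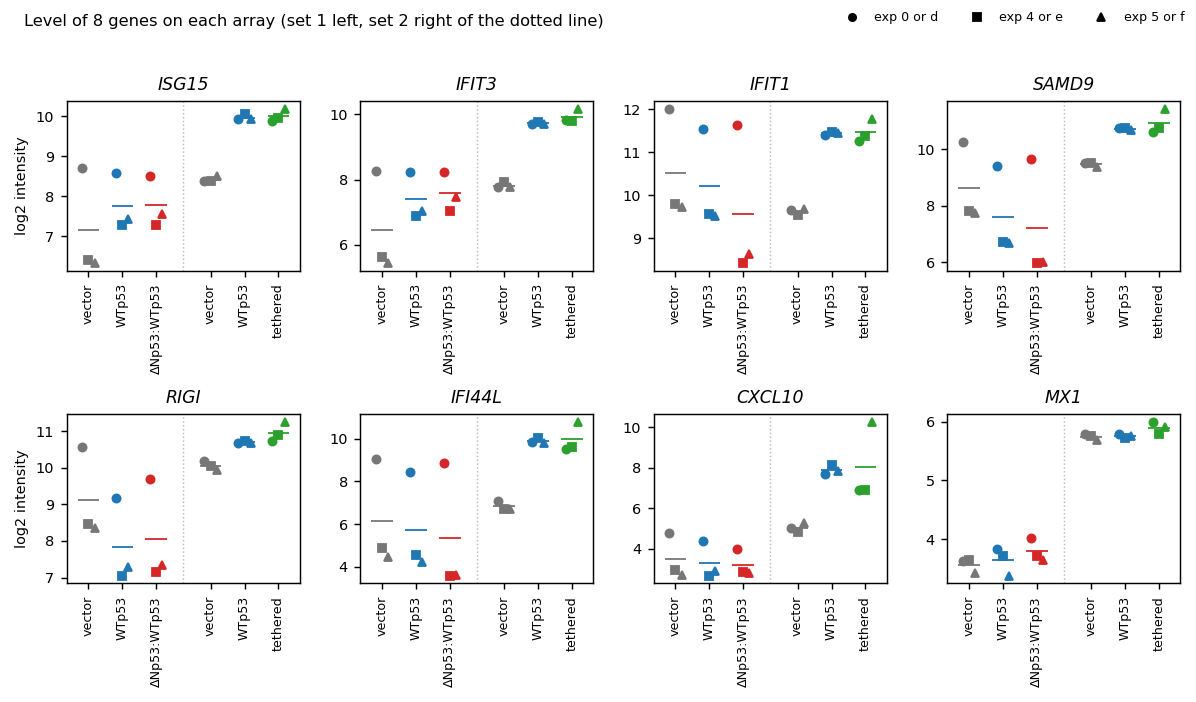
Log2 intensity of 8 members on each of the 18 arrays; symbols are the experiment labels, colours the groups, short lines the group means, and the dotted line separates set 1 from set 2, whose scales differ. In set 1 the circle of experiment 0 lies above the other symbols for all of these genes except MX1, and in set 2 the vector symbols lie below those of WTp53 for all except MX1.

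In set 1 the same comparison gave other values. Without regard to the experiment 0 members rose and 0 fell, and 0 had an unadjusted p under 0.05 (limma), while 15.2% of all genes rose and 16.6% fell. The median member differed by -0.21, the median gene by 0.02. The vector and WTp53 arrays overlapped for all 38 members, while 24.4% of all genes were higher and 24.4% lower without overlap. As experiments 0, 4 and 5 were separate transfections that each held all 3 groups, the experiment was also fitted as a block, with all 9 arrays. With the block 2 members rose and 10 fell, against 16.5% and 18.5% of all genes. The count of members that fell is not far above that background, so the members below are given for their own values.

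RIGI had the largest fall. It was at 10.57, 8.46 and 8.36 with vector and at 9.17, 7.05 and 7.28 with WTp53 in experiments 0, 4 and 5. WTp53 minus vector was -1.39, -1.41 and -1.09 within the experiments, a fall by 1.30 ± 0.12 with the block (limma adjusted p = 6.5e-05). SAMD9, an antiviral factor that inhibits translation, was at 10.26, 7.82 and 7.75 with vector and at 9.42, 6.70 and 6.69 with WTp53, and fell by 1.01 ± 0.21. In both genes the difference had the same sign in every experiment, although experiment 0 ran far above the others. DDX60 fell by 0.70 ± 0.14, DDX60L by 0.62 ± 0.15, SAMD9L by 0.55 ± 0.13, HERC5 by 0.63 ± 0.10 and IFI44 by 0.50 ± 0.13. All 3 genes of the PARP9 role fell, PARP9 by 0.80 ± 0.18, DTX3L by 0.48 ± 0.12 and PARP14 by 0.40 ± 0.10.

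The members that rose with the block were IFIT3, by 0.95 ± 0.32 (limma adjusted p = 0.0443), and USP18, by 0.72 ± 0.25 (adjusted p = 0.0494). IFIT3 was at 8.27, 5.62 and 5.45 with vector and at 8.23, 6.90 and 7.05 with WTp53, so that it differed by -0.04, 1.28 and 1.60 within experiments 0, 4 and 5. USP18 differed by -0.25, 1.16 and 1.25. ISG15, which did not pass with the block (0.61 ± 0.23), differed by -0.13, 0.86 and 1.10, and IFIH1 by -0.47, 0.40 and 0.63. In all 4 genes WTp53 was above vector in experiments 4 and 5 and at or below it in experiment 0. Their vector values were highest in experiment 0, and whether that bears on the difference was not tested.

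WTp53 was lower than vector in 3 of 3 experiments for 16 of 38 members, against 30.6% of all genes, and higher in 3 of 3 for 1, CMPK2, against 32.5%. With experiment 0 left out 7 members rose and 9 fell, against 17.5% and 20.6% of all genes. The 9 that fell were among the 10 that fell with the block, IFI44 being the other one. The 7 that rose were IFIT3 by 1.44 ± 0.15, USP18 by 1.21 ± 0.11, ISG15 by 0.98 ± 0.12, TRIM22 by 0.74 ± 0.24, IFIH1 by 0.52 ± 0.11, OAS1 by 0.50 ± 0.14 and IFI35 by 0.28 ± 0.09. When the vector array of experiment 0 alone was left out, with no block, 2 members rose, IFIT3 and ISG15, and 0 fell. Of all genes 13.5% rose and 15.5% fell there. That array was singled out for its high member values, so leaving it out raises their differences by construction.

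ΔNp53:WTp53 was set against the same vector arrays. Without the block 0 members rose and 0 fell, and 0 had an unadjusted p under 0.05 (limma), while 15.7% of all genes rose and 20.3% fell. The arrays overlapped for 37 of 38 members and 1, CMPK2, was higher without overlap, against 21.0% of all genes higher and 24.6% lower. With the block 1 member rose, IFIT3 by 1.14 ± 0.32, and 15 fell, against 16.7% and 21.9% of all genes. SAMD9, at 9.64, 5.98 and 6.0 with ΔNp53:WTp53, fell by 1.40 ± 0.21, and RIGI, at 9.70, 7.15 and 7.35, by 1.06 ± 0.12. IFIT1 fell by 0.95 ± 0.21, DDX60L by 0.93 ± 0.15, PARP9 by 0.88 ± 0.18 and IFI44L by 0.79 ± 0.22. The other 9 were DDX60, OAS2, OAS3, EIF2AK2, SAMD9L, HERC5, HERC6, DTX3L and IFI44, with falls between 0.36 and 0.72. ΔNp53:WTp53 was lower than vector in 3 of 3 experiments for 16 members, against 31.4% of all genes, and higher for 2, MX1 and CMPK2, against 28.5%. With experiment 0 left out 5 members rose (IFIH1, IFIT3, ISG15, USP18 and IFI35) and 16 fell, against 19.5% and 24.5% of all genes. All 15 that fell with the block were among the 16. Here too, leaving out experiment 0 narrows the spread of members by construction, and the calls are no independent test.

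ΔNp53:WTp53 against WTp53 called 0 members higher and 0 lower, with and without the block. Without it 0 had an unadjusted p under 0.05 (limma), and with it 4 did, BST2 and PARP14 higher and IFIT1 and IFI6 lower. Of all genes 1.56% rose and 0.880% fell without the block, and 2.74% and 1.63% with it. PARP14 fell against vector with WTp53 and differed by -0.06 ± 0.10 with ΔNp53:WTp53, but the direct difference of 0.34 ± 0.10 with the block did not pass (limma adjusted p = 0.0888). IFIT1 was at 11.53, 9.57 and 9.53 with WTp53 and at 11.63, 8.43 and 8.62 with ΔNp53:WTp53, so the constructs differed by 0.10, -1.14 and -0.90 within experiments 0, 4 and 5. With experiment 0 left out 8 members were lower with ΔNp53:WTp53 and 1 higher, against 6.64% and 6.72% of all genes. IFIT1 was lower by 1.02 ± 0.10 there, IFI6 by 0.86 ± 0.13, IFI44L by 0.78 ± 0.16, SAMD9 by 0.70 ± 0.09, DDX60L by 0.55 ± 0.11, OAS3 by 0.55 ± 0.11, HERC6 by 0.43 ± 0.10 and DTX3L by 0.40 ± 0.10. IFIH1 was higher by 0.62 ± 0.11. As experiment 0 was singled out for its high member values, these calls describe experiments 4 and 5 and are no independent test.

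**Figure D4:**
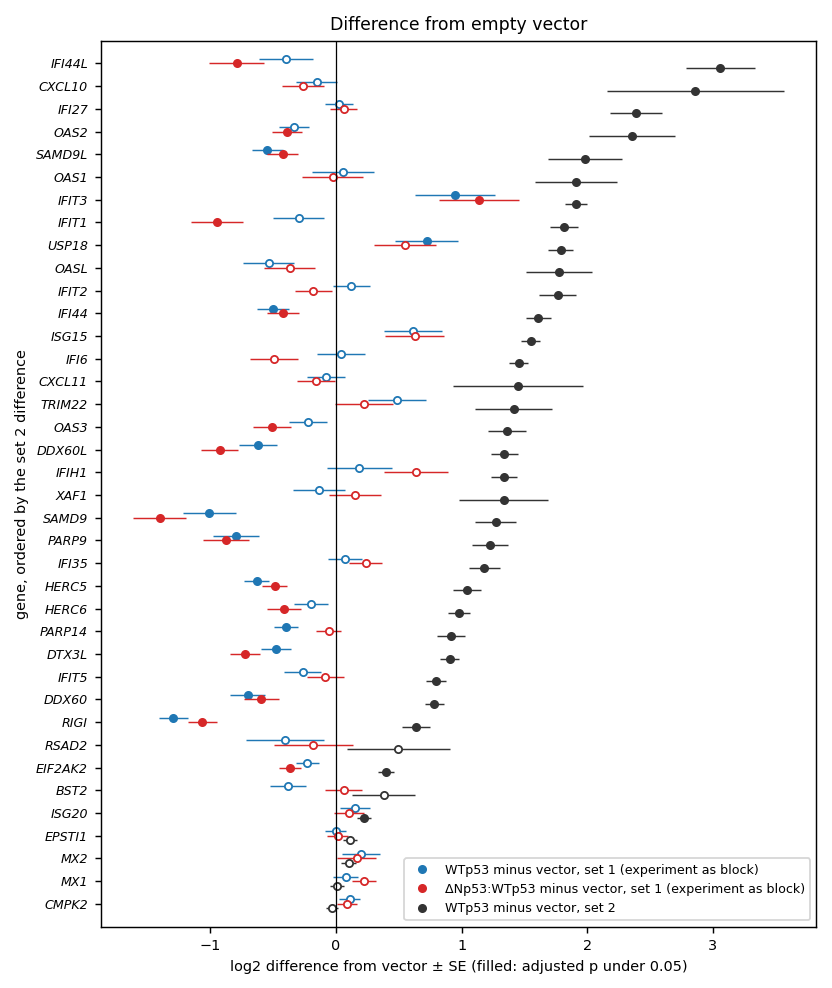
Log2 difference from empty vector (x axis, ± SE) for each measured member (rows, ordered by the set 2 value), for WTp53 and ΔNp53:WTp53 in set 1 with the experiment as a block and for WTp53 in set 2; filled points have an adjusted p under 0.05. The set 2 points reach 3.06 and 32 are filled on the right, whereas 10 WTp53 and 15 ΔNp53:WTp53 points of set 1 are filled on the left and 2 and 1 on the right.

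The difference between the sets was itself tested, as the WTp53 effect of set 2 minus that of set 1 over all 18 arrays. The median member differed by 1.44. Without the block 0 members passed as higher and 0 as lower, and 3 had an unadjusted p under 0.05 (limma), RIGI, CXCL10 and CXCL11, while 6.55% of all genes passed as higher and 5.93% as lower. With the experiment as a block 28 members passed as higher in set 2 and 0 as lower, against 9.30% and 7.91% of all genes. The difference of effects was 3.46 ± 0.40 for IFI44L, 3.01 ± 0.73 for CXCL10, 2.69 ± 0.37 for OAS2, 2.28 ± 0.30 for SAMD9 and 1.93 ± 0.18 for RIGI. IFIT3, which rose in both sets with the block, had 0.96 ± 0.38 and did not pass. Experiment 0 is in all of these differences, and values without it are not given. The sets also differ in experiment, array scale and processing, and these cannot be told apart from the set. In both fits a single spread was pooled over both sets, and the block also covered experiments d, e and f. As set 2 arrays may be technical, p-values of these differences do not measure the spread between transfections alone. The tethered minus WTp53 effect of set 2 was likewise set against the ΔNp53:WTp53 minus WTp53 effect of set 1, and 0 members passed without or with the block. Unadjusted p under 0.05 (limma) was reached by 0 without the block and by 5 with it, IFIT1, OAS3, EIF2AK2, DTX3L and IFI6, while 1.42% of all genes passed as higher and 1.54% as lower without the block, and 1.95% and 2.11% with it.

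Tethered WTp53 against vector, with the vector arrays shared with the WTp53 comparison, gave 32 members that rose and 0 that fell, against 21.6% and 26.2% of all genes. The median member differed by 1.39. For 33 members all tethered arrays were above all vector arrays, against 24.2% of all genes, and for 0 all were below, against 28.2%. IFI44L rose by 3.13 ± 0.27, CXCL10 by 2.98 ± 0.70, OAS2 by 2.33 ± 0.34, SAMD9L by 2.25 ± 0.29 and IFIT3 by 2.10 ± 0.09. MX2, RSAD2, CMPK2, BST2, EPSTI1 and CXCL11 did not pass, with 0.80 ± 0.41 for RSAD2 and 1.29 ± 0.52 for CXCL11, and MX1 passed with 0.16 ± 0.06. When the tethered array of experiment f was left out 32 members rose, with CXCL11 in and MX1 out, against 20.6% of all genes. With 1 spread over all 18 arrays 5 passed, IFIH1, IFIT3, ISG15, USP18 and CXCL10, against 15.1% of all genes.

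Tethered WTp53 against WTp53 gave few calls. With all arrays 3 members were higher, PARP14 by 0.35 ± 0.11, IFIT5 by 0.29 ± 0.08 and EIF2AK2 by 0.20 ± 0.06, and 1 was lower, DDX60 by 0.24 ± 0.07, against 14.9% of all genes higher and 17.5% lower. CXCL10 was at 6.91, 6.89 and 10.27 on the tethered arrays of experiments d, e and f and at 7.70, 8.15 and 7.85 on the WTp53 arrays. The difference was thus -0.79, -1.26 and 2.42 within d, e and f, on either side of 0, and its mean of 0.12 ± 0.70 did not pass. CXCL11 differed by -0.95, -1.17 and 1.65 and OAS2 by -0.60, -0.49 and 1.02, in the same pattern.

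With the tethered array of experiment f left out, 11 members were lower than with WTp53, against 17.3% of all genes. IFIT5 alone was higher, by 0.20 ± 0.06, against 14.1% of all genes. That array was singled out because members were high on it, so leaving it out lowers their differences by construction. The calls without it describe the tethered arrays of d and e and are no independent test. CXCL10 was lower by 1.0 ± 0.15 and CXCL11 by 0.97 ± 0.17. IFI27 was lower by 0.64 ± 0.12, OAS2 by 0.57 ± 0.06, DDX60L by 0.40 ± 0.08, XAF1 by 0.39 ± 0.08, OASL by 0.38 ± 0.07, OAS1 by 0.35 ± 0.09, RSAD2 by 0.34 ± 0.11, DDX60 by 0.27 ± 0.08 and IFIT2 by 0.25 ± 0.05. Without that array the median member went from 0.09 to -0.10, and the number of members above 0 from 30 to 11 of 38. Of the members lower without it, OAS1, OASL, RSAD2, XAF1 and CXCL10 were above 0 with it. IFIT5 and DDX60 kept their sign in d, e and f, with 0.28, 0.14 and 0.45 for IFIT5 and -0.30, -0.33 and -0.10 for DDX60. PARP14, with 0.11, 0.26 and 0.67, and EIF2AK2, with 0.10, 0.31 and 0.19, were higher in all 3 as well. Without the array EIF2AK2 kept its size at 0.19 ± 0.07 and PARP14 was at 0.20 ± 0.08, and neither passed.

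**Figure D5:**
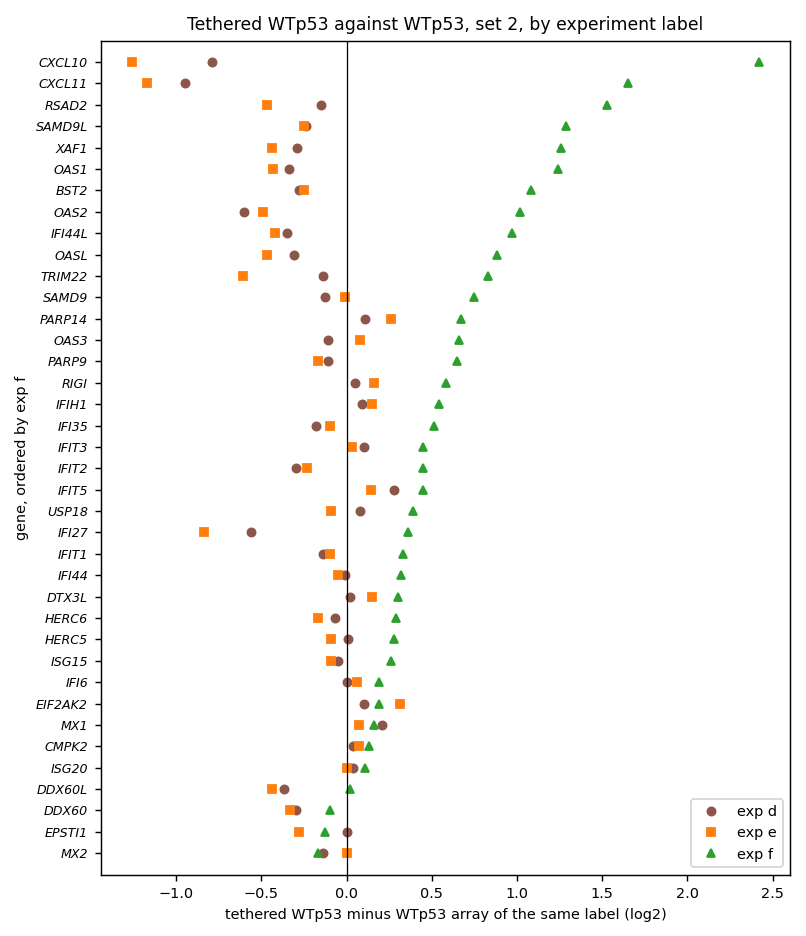
Tethered WTp53 minus WTp53 (log2, x axis) between the arrays of the same experiment label in set 2, for each measured member (rows, ordered by experiment f). The triangles of experiment f reach 2.42 for CXCL10 while the circle and square of d and e are at -0.79 and -1.26.

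The rest of the pathway was read from lists of ligands, receptors, transducers, sensors, inhibitors and further induced genes, 96 of them measured. In set 2 47 rose and 6 fell with WTp53, against 17.9% and 18.9% of all genes, and 54 and 6 with tethered WTp53, against 21.6% and 26.2%. In set 1 without the block 8 rose and 7 fell with WTp53 and 11 and 6 with ΔNp53:WTp53, and with the block the counts were 10 and 17, and 18 and 15. Of all genes 15.2% rose and 16.6% fell with WTp53 in set 1 without the block (16.5% and 18.5% with it), and 15.7% and 20.3% with ΔNp53:WTp53 (16.7% and 21.9% with it). Without the block the set 1 counts of 8 and 7, and of 11 and 6, of 96 are below these shares. With it the 17 that fell with WTp53 and the 18 that rose with ΔNp53:WTp53 are near them. The 10 that rose with WTp53 and the 15 that fell with ΔNp53:WTp53 are below. On the vector array of experiment 0 the median excess of the pathway genes was 0.59, with 37 of 96 over 1.

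Interferon transcripts themselves were low. Of 16 measured ligand genes 15 were below the median gene in every group. With WTp53 in set 2 1 rose, IFNL1 by 0.18 ± 0.06, and 1 fell, against 17.9% and 18.9% of all genes. With tethered WTp53 3 of 16 rose, against 21.6% of all genes, so neither count is above its background. The 3 were the type III interferon genes IFNL1, IFNL2 and IFNL3, which are close copies of each other, with rises of 0.26 ± 0.06, 0.34 ± 0.09 and 0.40 ± 0.11. In set 1 none of the 16 passed, with or without the block. Of all genes 15.2% rose with WTp53 and 15.7% with ΔNp53:WTp53 without the block, and 16.5% and 16.7% with it. IFNB1, the interferon made early on sensing of nucleic acid, was at 3.62, 2.37 and 2.46 with vector in experiments 0, 4 and 5, at 2.62, 2.72 and 2.49 with WTp53 and at 2.62, 2.60 and 2.62 with ΔNp53:WTp53. IFNL2 was at 6.09, 4.65 and 4.63 with vector, at 5.47, 4.73 and 4.91 with WTp53 and at 5.39, 5.33 and 5.30 with ΔNp53:WTp53. Both were highest on the vector array of experiment 0, a single array on which no test was made.

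Of 6 measured receptor chains 2 fell and 0 rose with each construct of set 1, against 16.6% of all genes that fell with WTp53 and 20.3% with ΔNp53:WTp53. In set 2 1 rose and 0 fell with WTp53, against 17.9% and 18.9% of all genes, and 0 rose and 2 fell with tethered WTp53, against 21.6% and 26.2%. IFNAR2, of the type I interferon receptor, was at 6.94, 6.89 and 6.69 with vector, at 6.21, 6.13 and 5.97 with WTp53 and at 6.36, 5.76 and 5.80 with ΔNp53:WTp53. It fell by 0.73 ± 0.16 and 0.86 ± 0.16, also without the block. Neither the WTp53 nor the ΔNp53:WTp53 arrays overlapped the vector arrays, while 24.4% and 24.6% of all genes were lower without overlap. IFNGR1, of the interferon gamma receptor, fell by 0.57 ± 0.11 and 0.80 ± 0.11. In set 2 with WTp53 neither passed, with 0.09 ± 0.06 and 0.06 ± 0.07, and the difference of WTp53 effects between the sets passed for both, at 0.82 ± 0.17 and 0.63 ± 0.13. With tethered WTp53 IFNAR2 fell by 0.26 ± 0.06 and IFNAR1 by 0.33 ± 0.06. On the vector array of experiment 0 the 6 chains had a median excess of 0.16, and 0 were over 1, with 0.15 for IFNAR2 and -0.19 for IFNGR1.

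Of 10 signal transducers and interferon regulatory factors 5 rose with WTp53 and 7 with tethered WTp53 in set 2, and 0 fell, against 17.9% and 21.6% of all genes that rose. In set 1 2 rose and 2 fell with WTp53, and 4 and 1 with ΔNp53:WTp53, against 15.2% and 16.6%, and 15.7% and 20.3%, of all genes. IRF1, an activator of ISRE-bearing genes, was at 8.75, 7.09 and 7.13 with vector in set 1, at 8.55, 8.25 and 8.30 with WTp53 and at 9.62, 9.59 and 9.48 with ΔNp53:WTp53. It rose by 1.91 ± 0.36 with ΔNp53:WTp53, and the WTp53 difference of 0.71 ± 0.36 did not pass. In set 2 IRF1 was at 9.54, 9.62 and 9.62 with WTp53 and at 11.04, 11.01 and 10.91 with tethered WTp53, which was higher by 1.39 ± 0.07. The tethered array of experiment f was not the highest for IRF1. STAT3 rose in all 4 comparisons with vector, by 1.0 ± 0.13 with WTp53 and 0.86 ± 0.13 with ΔNp53:WTp53 in set 1, and by 0.74 ± 0.04 with WTp53 and 1.05 ± 0.04 with tethered WTp53 in set 2. IRF5 rose in the same 4, by 0.74 ± 0.10, 0.71 ± 0.10, 0.44 ± 0.05 and 0.79 ± 0.05. IRF9, the DNA-binding part of ISGF3, did not pass in set 1 without the block and fell with it, by 1.05 ± 0.15 and 0.99 ± 0.15. In set 2 IRF9 differed by 0.19 ± 0.07 with WTp53.

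Of 16 sensing genes and adaptors 7 rose and 2 fell with WTp53 in set 2, and 8 and 1 with tethered WTp53, against 17.9% and 18.9%, and 21.6% and 26.2%, of all genes. In set 1 3 rose with WTp53 and 2 with ΔNp53:WTp53, near the 15.2% and 15.7% of all genes, and 0 fell with either. TLR3, the endosomal sensor of double-stranded RNA, rose by 2.10 ± 0.13 and 2.23 ± 0.13, and IFI16, a DNA sensor, by 1.91 ± 0.11 and 2.05 ± 0.11. In set 1 TLR3 differed by 0.66 ± 0.63 and 1.15 ± 0.63 without the block, and with it the ΔNp53:WTp53 difference of 1.15 ± 0.25 passed. CGAS, the cytosolic DNA sensor, rose in all 4 comparisons with vector, by 1.01 ± 0.17 and 1.60 ± 0.17 in set 1 and by 0.52 ± 0.05 and 1.06 ± 0.05 in set 2.

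Interferon also induces antigen presentation. Of 12 measured genes of that list 10 rose with WTp53 and 2 did not pass in set 2, and 12 rose with tethered WTp53, against 17.9% and 21.6% of all genes. With either construct 0 fell. TAP1, the peptide transporter, rose by 1.54 ± 0.09 and 1.62 ± 0.09, and the immunoproteasome subunits PSMB9 and PSMB8 by 1.16 ± 0.10 and 1.04 ± 0.08 with WTp53. In set 1 0 of 12 passed without the block, while 15.2% of all genes rose with WTp53 and 15.7% with ΔNp53:WTp53. With the block 1 rose with WTp53, TAP1 by 0.90 ± 0.27, and 4 with ΔNp53:WTp53, against 16.5% and 16.7% of all genes. TAP1 was at 10.54, 8.62 and 8.50 with vector and at 10.53, 9.92 and 9.92 with WTp53, level in experiment 0 and higher with WTp53 in experiments 4 and 5, as ISG15 was.

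Of 10 negative regulators 4 rose and 3 fell with WTp53 in set 2, against 17.9% and 18.9% of all genes. SOCS1, an inhibitor of JAK kinases, rose in all 4 comparisons with vector, by 0.84 ± 0.14 and 0.55 ± 0.14 in set 1 and by 0.67 ± 0.09 and 0.92 ± 0.09 in set 2. PIAS1, a SUMO ligase that restrains cytokine signalling, fell in all 4, by 1.48 ± 0.15 and 1.01 ± 0.15 in set 1 and by 0.52 ± 0.06 and 0.33 ± 0.06 in set 2. Of 26 other interferon-induced genes 19 rose with WTp53 and 20 with tethered WTp53 in set 2, against 17.9% and 21.6% of all genes, and 0 fell with either. In set 1 2 rose and 1 fell with WTp53, against 15.2% and 16.6% of all genes, and 3 and 8 with the block, against 16.5% and 18.5%. LAMP3, a lysosomal membrane protein, rose in all 4 comparisons with vector, by 2.54 ± 0.41 and 2.43 ± 0.41 in set 1 and by 1.96 ± 0.05 and 2.21 ± 0.05 in set 2. LGALS3BP, a secreted glycoprotein, rose by 2.02 ± 0.13 with WTp53 in set 2 and differed by 0.03 ± 0.91 in set 1.

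The promoter letters can be set beside these courses. Of the 27 members with a window that rose with WTp53 in set 2 19 held the ISRE core, and of the 5 that did not pass 3 held it, MX1, BST2 and EPSTI1. Both members with a p53 half-site, RIGI and ISG15, were among the 27 of 32 that rose in set 2. A half-site in 2 of 32 windows is near the 6.54% of all windows. In set 1 RIGI was lower with WTp53 in all 3 experiments while ISG15 rose without experiment 0. Several members lie side by side in the genome, among them IFIT2 and IFIT3, IFI44L and IFI44, SAMD9 and SAMD9L, PARP9 and DTX3L, and CXCL10 and CXCL11. Of the first pair, in set 1 with the block and WTp53, IFIT3 rose by 0.95 ± 0.32 and IFIT2 differed by 0.12 ± 0.15, and the difference between these genes was not tested.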

How the data were processed

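RNA of 18 arrays in 6 groups of 3 was analysed. The deposited values are log2 intensities per probe set, which the authors normalized with RMA in Affymetrix Expression Console per the submitters' processing notes; versions are not given in the sources used here. The sets were processed apart, which limits comparison to differences within a set. Of 33297 probe sets, 19460 have 1 symbol in the probe table, 1754 several and 12083 are not listed. Per gene the row with the highest mean was taken (769 genes had several, no member did). The probe set of the transfected gene is not reported here.

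In R 4.3.3, limma 3.58.1 (lmFit, eBayes) was fitted to all 18417 genes, each set of 9 arrays alone, with Benjamini-Hochberg adjustment over all genes and a threshold of 0.05. Differences between sets used all 18 arrays. There were 6 comparisons within sets and 2 differences of effects. With 3 arrays against 3, an exact two-sided permutation p cannot fall below 0.1. Pairing by experiment was checked on correlations of residuals. In set 1 all 9 same-experiment values exceeded 0.1 (0.11 to 0.57), in set 2 2 of 9 (-0.04 to 0.13). Blocked values are therefore given for set 1, and also for the differences between sets, where the block covered both sets. Excess is an array's value minus the mean of the other 2 of its group. Named genes were all members, and per pathway list up to 4 genes with the smallest p in any comparison within a set, plus CDKN1A and MDM2; IFNB1, IRF9 and the arrays that stand apart were singled out after their values were seen. Members and lists were chosen with earlier results of these data known. The fit was tested on simulated data. Alternatives covered the spread, filters, normalization, probe choice, block and left-out arrays or experiments. The number of arrays limits the precision.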

Additional observations from a re-analysis of the deposited data

Results flagged for a closer look

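Among the genes named in the text, the effect of WTp53 against vector differed between the sets for 6, none of them a member (limma over all 18 arrays, no block, each value being set 2 minus set 1), where 1207 of 18417 genes passed as higher and 1093 as lower. For CDKN1A the difference was -1.49 (adjusted p = 0.00476) and for MDM2 -1.30 (adjusted p = 3.6e-04), both rising in each set and less in set 2. For IFNAR2 it was 0.82 (adjusted p = 0.00751), for IFNGR1 0.63 (adjusted p = 0.00706), for PIAS1 0.96 (adjusted p = 0.00268) and for PTPN2, a phosphatase of the JAK-STAT pathway, 0.42 (adjusted p = 0.0229). For the members the result depended on the block, with IFI44L at 3.46 ± 1.88 without it and 3.46 ± 0.40 with it. With the block 28 members passed as higher in set 2 and 0 as lower, against 9.30% and 7.91% of all genes. For all genes of this section, CDKN1A and MDM2 included, experiment, array scale and processing also differ and cannot be told apart from the set.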

How the results depend on the processing

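With the experiment as a replicate block, members higher and lower in set 1 for WTp53 against vector went from 0 and 0 to 2 and 10. The shares of all genes with the block were 16.5% and 18.5%. For ΔNp53:WTp53 against vector they went to 1 and 15, against 16.7% and 21.9%. The difference of WTp53 effects went from 0 to 28 higher, against 9.30%. The block changed no other count by over 1.5 times. With 1 spread over all 18 arrays, members higher in set 2 fell from 32 to 4 with WTp53 and 5 with tethered WTp53. The shares of all genes there were 10.5% and 15.1%. For tethered WTp53 against WTp53 the counts fell to 0 and 0. That last comparison gave 3 higher and 1 lower in the main fit, against 14.9% and 17.5% of all genes. It gave 1 and 0 with only its 6 arrays and 5 higher without genes below the median level. After quantile normalization 2 were lower, and arrays centred on the median gave 1 and 2. Leaving out arrays or experiments gave 0 to 7 higher and 0 to 9 lower for WTp53 against vector in set 1. It gave 0 to 5 and 0 to 16 for ΔNp53:WTp53 against vector, and 0 to 1 and 0 to 8 for ΔNp53:WTp53 against WTp53. The highest of these set 1 counts were those without experiment 0, whose shares of all genes are given above. For WTp53 in set 2 it gave 27 higher (13.5% of all genes) to 34 (18.4%). Tethered WTp53 gave 31 to 33 higher against vector, and 0 to 6 and 0 to 11 against WTp53. The difference of WTp53 effects gave 0 to 2 higher. Of single arrays, leaving out vector 0 gave 3 higher (14.5% of all genes) for ΔNp53:WTp53 against vector, and ΔNp53:WTp53 0 gave 1 lower (23.3%). For tethered WTp53 against WTp53, leaving out tethered d gave 6 and 0 and WTp53 d 0 and 2. An alternative chosen after seeing the data used the block with an experiment left out. WTp53 against vector in set 1 gave 6 and 9 without experiment 0, against 17.5% and 20.4% of all genes. It gave 8 lower without 4, against 9.4%, and 7 lower without 5, against 10.1%. ΔNp53:WTp53 against vector gave 5 and 16 without 0 (19.4% and 24.2%), 6 lower without 4 (10.2%) and 7 lower without 5 (11.1%). ΔNp53:WTp53 against WTp53 gave 1 and 8 without 0, against 6.26% and 6.28%. Tethered WTp53 against WTp53 gave 0 lower without d, 1 and 0 without e and 0 and 10 without f. Counts in this paragraph without a share beside them are not a result about the members.

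Sign changes in which either value passed the test occurred only for tethered WTp53 against WTp53. With single arrays or experiments left out the differences ranged from -0.39 to 0.45 for OAS1, -0.39 to 0.28 for OASL, -0.34 to 0.69 for RSAD2, -0.39 to 0.48 for XAF1 and -1.02 to 0.81 for CXCL10, the lowest values being those without experiment f or its tethered array. Without experiment f and with the block they were -0.39 (OAS1), -0.39 (OASL), -0.27 (BST2), -0.36 (XAF1) and -1.02 (CXCL10). Over 304 gene-by-comparison values and 6841 alternatives, 5950 kept sign and call, 514 turned sign without a call in either, 138 lost the call, 225 gained it and 14 turned sign with a call. The cause of these changes was not tested.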

Other observations

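The genes that stood highest in experiment 0 and on the tethered array of experiment f were listed without regard to the members. Ranked by the smallest excess over the 3 arrays of experiment 0, 30 of the first 50 genes were members, 14 were other genes of the pathway lists and 6 were neither. The 6 were CCL5 (3.08), a chemokine, PARP12 (1.41), RHEBL1 (1.10), B4GALT5 (1.07), SERPINA1 (1.04) and KLF4 (1.03), named after their values were seen. On the tethered array of experiment f 17 of the first 50 were members and 9 were pathway genes, and CXCL10 (3.37), CXCL11 (2.43), CCL5 (2.08) and RSAD2 (1.94) led. RSAD2 was 3.66 above its group on the vector array of experiment 0, and 1.82 and 2.60 on the WTp53 and ΔNp53:WTp53 arrays, while in set 2 it did not pass against vector with either construct. The first 50 were ranked on the values described, so these counts are a description with no test.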
